A study of Mus musculus with 8 samples.

Results

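The orosomucoid genes Orm1, Orm2 and Orm3 and 7 further acute phase genes, Saa1, Saa2, Saa3, Saa4, Lcn2, Apcs and Hp, were followed in regenerating mouse liver. These 10 genes, of 55401 in the deposited tables, were listed by name as plasma acute phase genes of the liver, with the difference between the groups already known, so their own differences are a description, and nothing is read from a test of them. Liver RNA of C57BL/6J mice was sequenced in bulk, with 4 libraries from mice given an adeno-associated virus with a control hairpin (shNC) and 4 from mice given one with a hairpin against Tbl1xr1 (shTbl1xr1). Both groups share the surgery: virus came first, most of the liver was removed 4 weeks later, and the remnant was taken on day 2. Tbl1xr1 encodes a subunit of the NCoR and SMRT corepressor complexes. The virus was aimed at hepatocytes, not at the other liver cells, and the sources used here give neither the promoter that drives the hairpin nor the sex and age of the mice. No library without surgery is among the 8, so the values show a difference between hairpins within the response to surgery and not that response itself.

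The acute phase response is the change in plasma proteins that hepatocytes make after injury, infection or surgery. Interleukin-6 acts through its receptor and gp130 on STAT3, and interleukin-1 and tumour necrosis factor act through NF-kB. C/EBP factors and the glucocorticoid receptor work with both at the promoters of the secreted proteins. Orosomucoids, also called alpha-1-acid glycoproteins, are abundant plasma carriers of small lipophilic molecules. Serum amyloid A proteins travel on high density lipoprotein, lipocalin 2 (Lcn2) binds bacterial siderophores, serum amyloid P (Apcs) is a pentraxin, and haptoglobin (Hp) binds free haemoglobin.

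On mm10, the 3 orosomucoid genes lie in a row on the plus strand of chromosome 4, Orm1 at chr4:63344560-63348163, Orm3 at chr4:63356162-63359511 and Orm2 at chr4:63362449-63365878. The 4 serum amyloid A genes lie together on chromosome 7, Saa3 at chr7:46711998-46715700, Saa4 at chr7:46727998-46732603, Saa1 at chr7:46740497-46742980 and Saa2 at chr7:46751790-46754313, with only Saa2 on the plus strand. Lcn2 (chr2:32384633-32388252), Apcs (chr1:172893961-172895041) and Hp (chr8:109575128-109579172) stand alone on the minus strand. All 10 are protein-coding genes. A stretch of the Orm1 and Orm2 coding sequences, bases 138 to 197 counted from the A of the start codon, is shown because telling these neighbours apart decides the main value below. It is the 60-base stretch in which they differ most, and capitals mark the 17 bases that differ.
Orm1: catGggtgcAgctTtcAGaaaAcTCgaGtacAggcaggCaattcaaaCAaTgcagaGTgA
Orm2: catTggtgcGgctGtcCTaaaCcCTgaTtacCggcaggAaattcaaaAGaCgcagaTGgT
Over the whole coding sequence Orm1 and Orm2 were identical at 89.9% of 624 aligned bases, and differed at 63. Orm2 and Orm3 were identical at 88.4%, and Orm1 and Orm3 at 86.5%. Saa1 and Saa2 were closer still, at 95.1% of 369 bases, while Saa1 and Saa3 matched at 74.7%. Of all 100-base windows in the Orm1 transcripts, 6.95% also occurred in Orm2, and none of 150 bases did. For Saa1 8.96% of 100-base windows and 2.11% of 150-base windows also occurred in Saa2. The deposited expected counts of Orm1, Orm2, Saa1 and Saa2 held fractions in all 8 libraries, that is, some reads were shared out between genes, and those of Saa3 did in 6 and of Orm3 in 2. The levels of these 6 genes carry that uncertainty. The counts of Saa4, Lcn2, Apcs and Hp were whole in all 8.

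RefSeq promoter windows on GRCm38.p6 were at hand for 8 of the 10 genes, not for Orm1 and Hp. The 250 bases upstream of the start are printed for the closely related Orm2 and Orm3, and for Saa1 and Apcs, which represent genes with and without the C/EBP letters. Each reads 5′ to 3′ along the gene's own strand. Capitals mark matches to TTGCNNAA (C/EBP), to TTCNNNGAA (STAT), to AGAACA (an arm of the glucocorticoid receptor element), or to the NF-kB element, taken as GGG and CC with 5 bases of any kind between them. All were searched on both strands.
Orm2, chr4:63362199-63362448, plus strand: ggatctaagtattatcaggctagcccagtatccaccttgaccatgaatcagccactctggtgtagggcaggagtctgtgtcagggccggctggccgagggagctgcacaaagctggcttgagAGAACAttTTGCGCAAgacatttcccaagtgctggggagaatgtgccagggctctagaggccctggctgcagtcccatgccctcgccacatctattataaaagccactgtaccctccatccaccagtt
Orm3, chr4:63355908-63356157, plus strand: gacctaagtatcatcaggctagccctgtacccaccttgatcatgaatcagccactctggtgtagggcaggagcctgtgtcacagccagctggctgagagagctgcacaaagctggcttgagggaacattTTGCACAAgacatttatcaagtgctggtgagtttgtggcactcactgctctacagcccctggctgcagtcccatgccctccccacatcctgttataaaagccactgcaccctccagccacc
Saa1, chr7:46742981-46743230, minus strand: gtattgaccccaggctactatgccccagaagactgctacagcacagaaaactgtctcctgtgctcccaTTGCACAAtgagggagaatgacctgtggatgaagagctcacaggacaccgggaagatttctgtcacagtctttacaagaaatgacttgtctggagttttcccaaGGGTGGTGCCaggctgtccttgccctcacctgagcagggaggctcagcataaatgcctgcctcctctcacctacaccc
Apcs, chr1:172895055-172895304, minus strand: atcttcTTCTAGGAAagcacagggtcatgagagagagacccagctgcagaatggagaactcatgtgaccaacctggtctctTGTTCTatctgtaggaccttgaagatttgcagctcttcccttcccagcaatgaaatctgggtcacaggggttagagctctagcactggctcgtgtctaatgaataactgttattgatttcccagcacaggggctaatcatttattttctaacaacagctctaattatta
The C/EBP letters stood in 7 of the 8 windows, all but that of Apcs, against 9.56% of 32851 RefSeq windows of the same length. In Orm2 they were TTGCGCAA from -120 to -113 of the start, and in Orm3 TTGCACAA from -121 to -114. Saa1 and Saa2 both had TTGCACAA, from -182 and -183. The NF-kB letters were present in Saa1, Saa2, Saa4 and Lcn2, 4 of 8 against 45.8% of all windows. The STAT letters were in the Apcs window alone, against 7.02% of all windows, and the glucocorticoid receptor letters in those of Orm2 and Apcs, against 16.1%. In Orm2 AGAACA ran from -128 to -123, just ahead of the C/EBP letters, and no 2 matches overlapped. The windows of Saa1 and Saa2 were 95.6% identical and those of Orm2 and Orm3 89.0%, so matches within each pair are not independent. The window of Orm3 held the C/EBP letters but not AGAACA. These are matches of letters and were not measured as binding.

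Libraries differed in depth. Totals were 25811763 to 27537235 counts in shNC, 10895508 and 10728583 in shTbl1xr1 1 and 2 (the shallow pair), and 26976205 and 36720879 in shTbl1xr1 3 and 4 (the deeper pair). The mitochondrial share of counts was 11.3% and 14.8% in the shallow pair and 4.52% to 7.34% in the other 6, and the first principal component (59.3% of variance) set that pair apart. Tbl1xr1, the targeted gene, was at 27.2 to 35.9 TMM-normalised CPM in shNC and at 2.38, 2.07, 9.24 and 15.9 in shTbl1xr1 1 to 4, so the groups did not overlap (log2 fold change -2.07, SE 0.54, edgeR adjusted p = 0.29, range over 17 alternatives 6.6e-05 to 0.694). Summed hepatocyte markers were at 55399 to 73957 CPM in shNC and 58688 to 88866 in shTbl1xr1. All macrophage (10), stellate cell (7) and endothelial (6) markers had log2 fold changes below 0, and their sums were lowest in the shallow pair: for macrophages 602 to 968 CPM in shNC against 298, 319, 817 and 747 in shTbl1xr1 1 to 4. With the deeper pair alone 5 of the 10 macrophage, 2 of the 7 stellate cell and 4 of the 6 endothelial markers had log2 fold changes above 0. In bulk liver, fewer cells of a type and less RNA per cell cannot be told apart.

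Levels per length are given in TPM, as deposited. In shNC the order by mean was Hp, Saa2, Saa1, Orm1, Lcn2, Apcs, Orm2, Saa4, Saa3 and Orm3. Hp was highest at 8145 ± 836 TPM (SD, n = 4) and Orm3 lowest at 9.87 ± 11.7. Saa2 (5699 ± 1378), Saa1 (5451 ± 1253) and Orm1 (4981 ± 971) lay within their spread of each other, as did Apcs (403 ± 111) and Orm2 (298 ± 90.3), and Saa4 (100.1 ± 26.9) and Saa3 (84.9 ± 13.0). In shTbl1xr1 the order of means was Hp, Saa1, Saa2, Orm1, Lcn2, Orm2, Apcs, Saa3, Saa4 and Orm3. Saa1 and Saa2, Orm2 and Apcs, and Saa3 and Saa4 thus changed places. The 10 genes together took 1.32% to 1.82% of all counts in shNC. Their share was 2.30% and 1.97% in the shallow pair, 1.70% in shTbl1xr1 3 and 0.788% in shTbl1xr1 4, so both the highest and the lowest share were in the hairpin group.

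**Figure D1:**
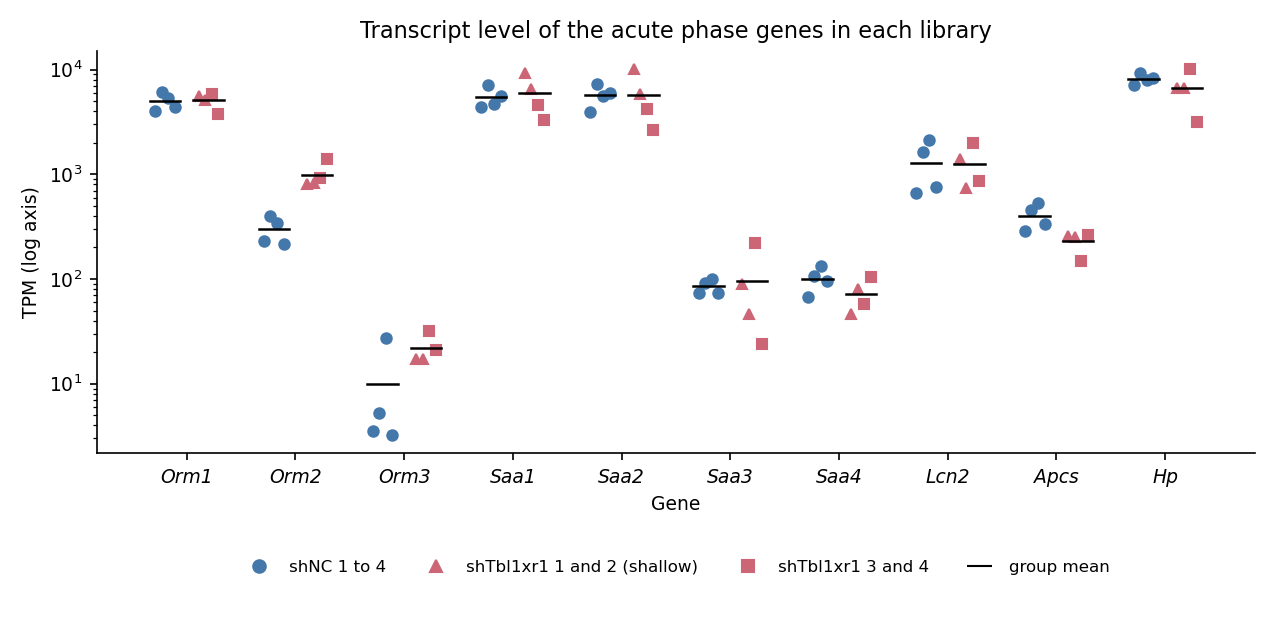
TPM (log axis) of the 10 acute phase genes in each of the 8 libraries, with a bar at each group mean. Orm2 is the gene whose shTbl1xr1 points, 799.60 to 1401.55 TPM, all lie above its shNC points, 216.53 to 402.24, while the shTbl1xr1 points of Apcs all lie below its shNC points.

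Orm2 stood higher in every shTbl1xr1 library than in any shNC library. Its level was 229.34, 402.24, 345.35 and 216.53 TPM in shNC 1 to 4 and 799.60, 829.07, 926.47 and 1401.55 in shTbl1xr1 1 to 4. The groups did not overlap. In TPM the highest value came from shTbl1xr1 4, the deepest library and the one with the lowest summed level of the 10 genes. In TMM-normalised CPM, the scale of the fit, it came from shTbl1xr1 2, at 809 against 570 in shTbl1xr1 4. Means on that scale were 125 ± 35.3 in shNC and 611 ± 187 in shTbl1xr1 (SD, n = 4 each), a ratio of 4.90. This gave a log2 fold change of 2.29 (SE 0.30). It was 1.91 (SE 0.27) with the deeper shTbl1xr1 3 and 4 alone, 2.59 (SE 0.23) with the shallow pair alone, and 1.74 on log2 of TPM plus 1, a scale on which the median of all genes stood at -0.34.

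Among the 10 genes, Orm2 was also the sole one to pass the threshold over all genes in edgeR's quasi-likelihood test (adjusted p under 0.05), which called 7 genes of 13908. Of these, 6 passed as higher, 0.0431%, and 1 as lower, 0.00719%. With library size alone as scaling 3 passed as higher and 1 as lower. Since Orm2 was chosen on this contrast, nothing is read from its place among them. Orm2 passed in 6 of 17 alternatives, and not when any 1 of shNC 1, 2, 3 or 4 or shTbl1xr1 1 or 2 was left out, though its fold change stayed between 1.74 and 2.59 throughout. Every shTbl1xr1 library lay above every shNC library for 1 of the 10 genes in CPM, Orm2, against 3.88% of all genes tested, and no member lay wholly below, against 3.37%. In TPM the shares of all genes were 0.669% above and 5.72% below, with Orm2 above and Apcs below.

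Orm1, the major orosomucoid transcript, had about the same TPM in both groups. Its level was 4034.33, 6146.69, 5395.22 and 4347.22 TPM in shNC and 5556.81, 5155.48, 5825.24 and 3751.12 in shTbl1xr1. The groups overlapped fully, and the group means of 4981 and 5072 TPM differed by less than either SD. The log2 fold change was 0.72 (SE 0.39) in TMM-normalised counts, where the shallow pair alone gave 1.24 and the deeper pair alone -0.11. It was 0.03 on log2 of TPM plus 1, where the median of all genes was -0.34.

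Within each library Orm2 was therefore larger relative to Orm1 under the Tbl1xr1 hairpin, a comparison that no library scaling can change. Orm2 was 5.68%, 6.54%, 6.40% and 4.98% of Orm1 TPM in shNC 1 to 4, and 14.4%, 16.1%, 15.9% and 37.4% in shTbl1xr1 1 to 4. The means were 5.90% ± 0.720 and 20.9% ± 11.0 (SD, n = 4 each), without overlap, and shTbl1xr1 4 stood apart from the other hairpin libraries. Its 3 companions lay within 14.4% to 16.1%, shallow or not. Since reads are shared out between these paralogs, the ratio rests on the authors' assignment. The 3 genes summed were at 4267 to 6554 TPM in shNC and 5174 to 6784 in shTbl1xr1, which overlap.

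**Figure D2:**
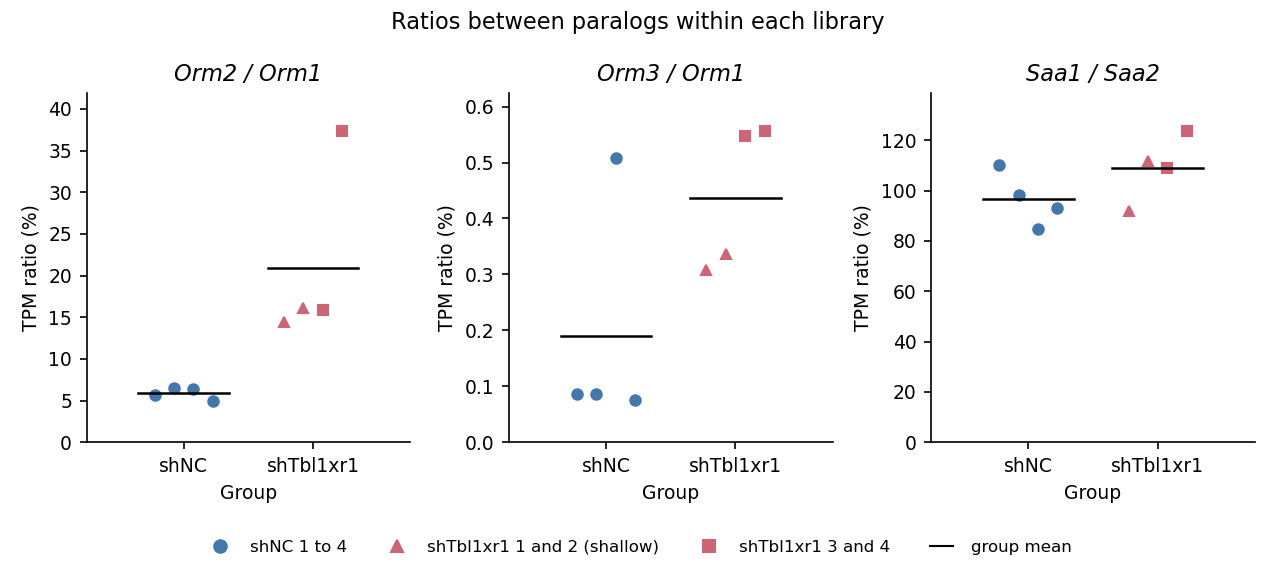
TPM ratio in percent between paralogs within each library, for Orm2 to Orm1, Orm3 to Orm1 and Saa1 to Saa2, with bars at group means. For Orm2 to Orm1 the shNC points lie at 4.98% to 6.54% and the shTbl1xr1 points at 14.4% to 37.4%, while the points of both groups overlap for Saa1 to Saa2.

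Orm3, the least abundant orosomucoid, was at 3.51, 5.29, 27.44 and 3.25 TPM in shNC and 17.10, 17.33, 31.84 and 20.88 in shTbl1xr1. All hairpin libraries exceeded shNC 1, 2 and 4, but shNC 3 lay among them, so the groups overlapped. In log2 fold change this was 1.72 (SE 0.63), and 2.92 without shNC 3. It stayed above 0 in all 17 alternatives, from 1.35 to 2.92. The smallest count behind a value was 39, and counting error is therefore larger here than for its neighbours. The pseudogene Gm11212 between Orm1 and Orm3 held 10 counts in all 8 libraries together.

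The inducible serum amyloid A genes Saa1 and Saa2 were among the most abundant of the 10 and spread widely in the hairpin group. Saa1 was at 4347.86, 7159.80, 4707.06 and 5588.63 TPM in shNC and 9302.75, 6484.97, 4598.79 and 3286.05 in shTbl1xr1. Saa2 was at 3944.12, 7283.99, 5567.53 and 6001.82 TPM in shNC and 10118.59, 5800.12, 4215.66 and 2655.84 in shTbl1xr1. For both genes the highest value was in shTbl1xr1 1 and the lowest in shTbl1xr1 4, the library with the highest Orm2 in TPM, and the groups overlapped. Saa1 had a log2 fold change of 0.95 (SE 0.55), 1.66 with the shallow pair alone and -0.53 with the deeper pair alone. That of Saa2 was 0.85 (SE 0.59), 1.60 with the shallow pair and -0.78 with the deeper pair, so the direction turned between the pairs for both. Saa1 stood at 84.5% to 110% of Saa2 TPM in shNC and 91.9% to 124% in shTbl1xr1.

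Saa3, which macrophages and adipocytes also make in mice, was at 74.01, 91.70, 99.86 and 73.87 TPM in shNC and 89.72, 46.23, 220.97 and 23.75 in shTbl1xr1. Saa4, the constitutive member of the family, was at 66.69, 105.94, 131.85 and 95.78 TPM in shNC and 46.08, 79.66, 57.45 and 104.18 in shTbl1xr1. Neither pair of groups was apart, and the hairpin group held both the highest and the lowest Saa3 value. The log2 fold change was 0.65 (SE 0.52) for Saa3 and 0.12 (SE 0.33) for Saa4. Both were below 0 on log2 of TPM plus 1, at -0.29 and -0.50, where the median of all genes was -0.34.

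Lcn2 differed more within than between the groups. It was at 670.13, 1637.33, 2104.62 and 758.75 TPM in shNC and 1396.57, 739.28, 2009.86 and 868.86 in shTbl1xr1, with group means of 1293 and 1254 TPM. The log2 fold change was 0.53 (SE 0.44) and stayed above 0 in all 17 alternatives, down to 0.01 in TPM. In TPM, Lcn2, Saa3 and Orm3 were each highest within their group in shNC 3 and shTbl1xr1 3. In TMM-normalised CPM this did not hold: Lcn2 was highest in shTbl1xr1 1 (1517 against 1016 in shTbl1xr1 3), Orm3 in shTbl1xr1 2 (16.8 against 12.7), and Saa3 in shNC 2 (23.1 against 23.0 in shNC 3). Summed bile duct markers, in CPM, were at 118 in shNC 3 against 31.7 to 48.2 in the other shNC libraries, and at 236 in shTbl1xr1 3 against 37.1 to 59.8. Spp1 made up 99.0 and 202 CPM of those sums, and 5 of the 6 markers, all but Prom1, were highest of their group in both libraries. The 5 adipocyte markers summed to 15.8 CPM in shNC 3 and 27.9 in shTbl1xr1 3, of which Cidec, a gene that fatty hepatocytes also express, made up 15.7 and 27.8. Adipoq, Plin1 and Retn had at most 5 counts in a library, with Adipoq at 0 in shNC 3, and Lep had 0 in every library. Summed stellate cell markers were also highest of their group in shNC 3 and shTbl1xr1 3, at 300 and 277 CPM. Macrophage and endothelial sums were highest of their group in shTbl1xr1 3, at 817 and 186 CPM, but not in shNC 3, at 767 and 185. Neutrophils, a further source of Lcn2, had summed markers of 4.19 to 10.5 CPM in shNC and of 2.88, 4.97, 18.0 and 9.47 in shTbl1xr1 1 to 4. All these sums are in CPM, the scale on which the 3 genes were not all highest in shNC 3 and shTbl1xr1 3. The part of these cells in the 3 genes was not tested.

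Apcs, a major acute phase protein of the mouse, ran the other way in TPM. It was at 289.72, 457.59, 531.80 and 333.84 TPM in shNC and 258.23, 251.43, 149.52 and 260.42 in shTbl1xr1. Every hairpin library lay below every control library on this scale, as 5.72% of all genes did, with means of 403 ± 111 and 230 ± 53.7 TPM. In TMM-normalised CPM the groups overlapped, at 182 to 283 in shNC and 303, 333, 81.8 and 144 in shTbl1xr1, and the log2 fold change was -0.09 (SE 0.41). It was -1.02 (SE 0.29) with the deeper pair alone, 0.47 with the shallow pair alone and -0.80 on log2 of TPM plus 1, so the direction depended on the scaling and on the libraries taken. Apcs was not alone in this: of the 20 other positive acute phase genes listed below, Fga, Fgg, Itih3 and Fgl1 also lay wholly below in TPM. The rest of the 20 did not, and none did in CPM.

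Hp was at 7190.48, 9206.84, 7931.61 and 8249.65 TPM in shNC and 6706, 6665.05, 10078.57 and 3133.52 in shTbl1xr1. The control values lay close together, and the hairpin group held both the highest and the lowest of the 8. The log2 fold change was 0.35 (SE 0.44), 0.83 with the shallow pair and -0.36 with the deeper pair.

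Across the 10 genes, 9 had a log2 fold change above 0, against 50.6% of all genes tested, and the median was 0.68 against 0.01 for all genes. With the deeper pair alone the median was -0.23, with the shallow pair alone 1.04, and on log2 of TPM plus 1 it was -0.06. The medians of all genes in these settings were 0.0034, -0.089 and -0.34. The sign of the members' median thus turned both with the libraries taken and with the scaling. On TPM it remained above the median of all genes, and with the deeper pair alone it lay below. Orm2, Orm3 and Lcn2 were above 0 in all 17 alternatives. Depth, mitochondrial share and hairpin cannot be told apart in the shallow pair, since no shNC library was shallow. Tbl1xr1 itself also differed between the pairs, at 2.38 and 2.07 CPM in the shallow pair and 9.24 and 15.9 in the deeper pair. Its part in the differences between the pairs was not tested.

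**Figure D3:**
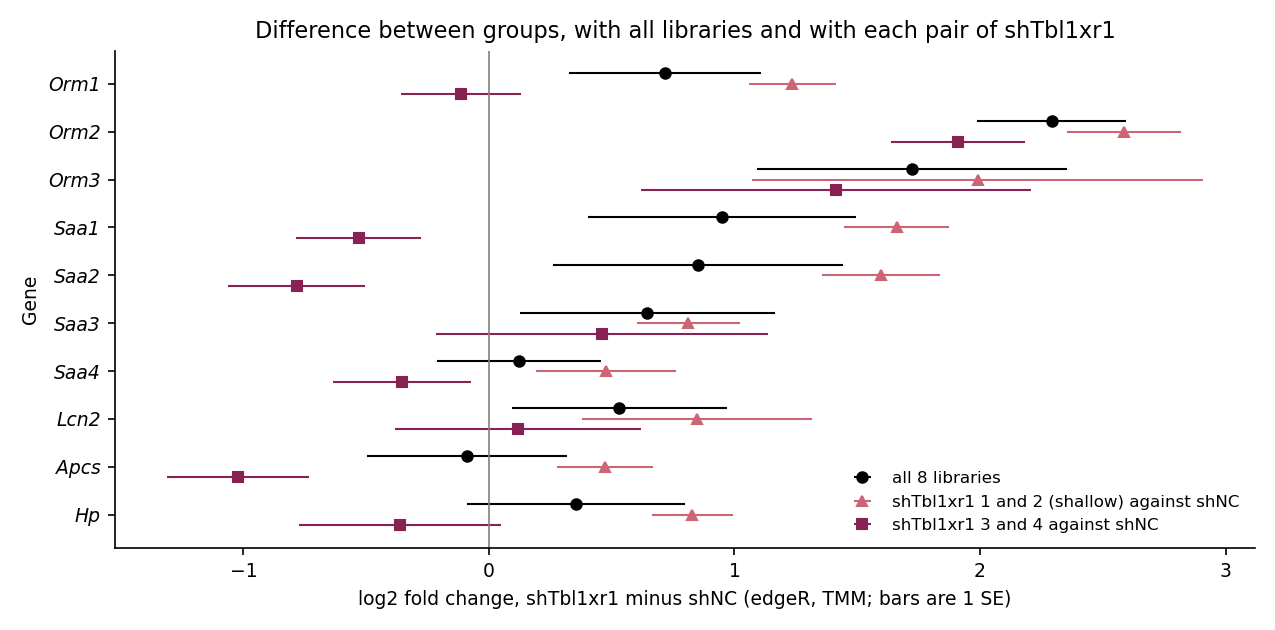
log2 fold change of shTbl1xr1 over shNC (edgeR, TMM) for the 10 genes with 1 SE, from all 8 libraries, from the deeper pair of shTbl1xr1 libraries and from the shallow pair. Orm2 lies at 1.91 to 2.59 in the 3 sets, while 6 genes, Orm1, Saa1, Saa2, Saa4, Apcs and Hp, lie above 0 with the shallow pair and below 0 with the deeper pair.

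The members also differed in how they moved from library to library. Over the 8 libraries, Pearson's r of log2 CPM had a median of 0.55 over the 45 pairs of genes, with 9 pairs above 0.8 and 1 below 0. These are descriptions: all pairs share the libraries, their depth and their scaling. Saa1 and Saa2 ran closest together (r = 0.98), and Orm1 followed Saa1 (r = 0.95) and Hp (r = 0.84). Orm2 tracked Orm1 less (r = 0.63), Hp little (r = 0.18) and Orm3 more (r = 0.82), but r for Orm2 and Orm3 was 0.38 once group means were removed. That step also lowered r of Orm2 with Saa3 (to -0.052) and Lcn2 (to 0.44), and raised it with the other members. The highest were then Apcs (0.88, from 0.07) and Saa4 (0.79, from 0.27). Saa3 and Saa4, neighbours on chromosome 7, had r = -0.24.

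Outside the 10 genes, those most like Orm2 among 9245 candidates were Frrs1 (r = 0.98), Cux1 (r = 0.97) and Rffl (r = 0.97), over 8 libraries. Frrs1 had a log2 fold change of 0.68, far under that of Orm2. Those most like Saa1 were Mrpl24 (r = 0.996), Denr (r = 0.992) and Copz1 (r = 0.988), and those most like Lcn2 were Cdk10 (r = 0.91), Btg3 (r = 0.91) and Fbxo4 (r = 0.89). None of these 9 is an acute phase gene of the lists used here. They are the highest of 9245 values, taken with group means left in and over libraries that share depth and scaling. They are a description, and shared regulation was not tested.

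The rest of the pathway was read from 7 lists with 78 genes, of which 72 had enough counts to test. None passed in edgeR over all genes. At p under 0.05 before adjustment 1 was higher, where 7.9% of all genes were, and 5 were lower, where 3.71% were, and DESeq2 called 1 in each direction after adjustment, where it called 1.78% of all genes as higher and 0.338% as lower. The median log2 fold change of the 72 was -0.06, and 44.4% lay above 0, against 50.6% of all genes. In CPM every shTbl1xr1 library lay above every shNC library for 1 of the 72, against 3.88% of all genes tested. Every one lay below for 3, against 3.37%. With the shallow pair alone 10 passed as higher, where 21.5% of all genes did, and 23 as lower, where 21.1% did. With the deeper pair alone none passed in either direction, where 0.0478% of all genes passed as higher and 0% as lower. On log2 of TPM plus 1, where the median of all genes was -0.34, the list medians were -0.46 for cytokines, -0.56 for receptors, -0.48 for kinases and transcription factors, -0.56 for feedback inhibitors and -0.75 for glucocorticoid targets. With TPM plus 0.1 they were, in that order, -1.09, -0.98, -0.70, -0.67 and -0.92, where the median of all genes was -0.50.

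**Figure D4:**
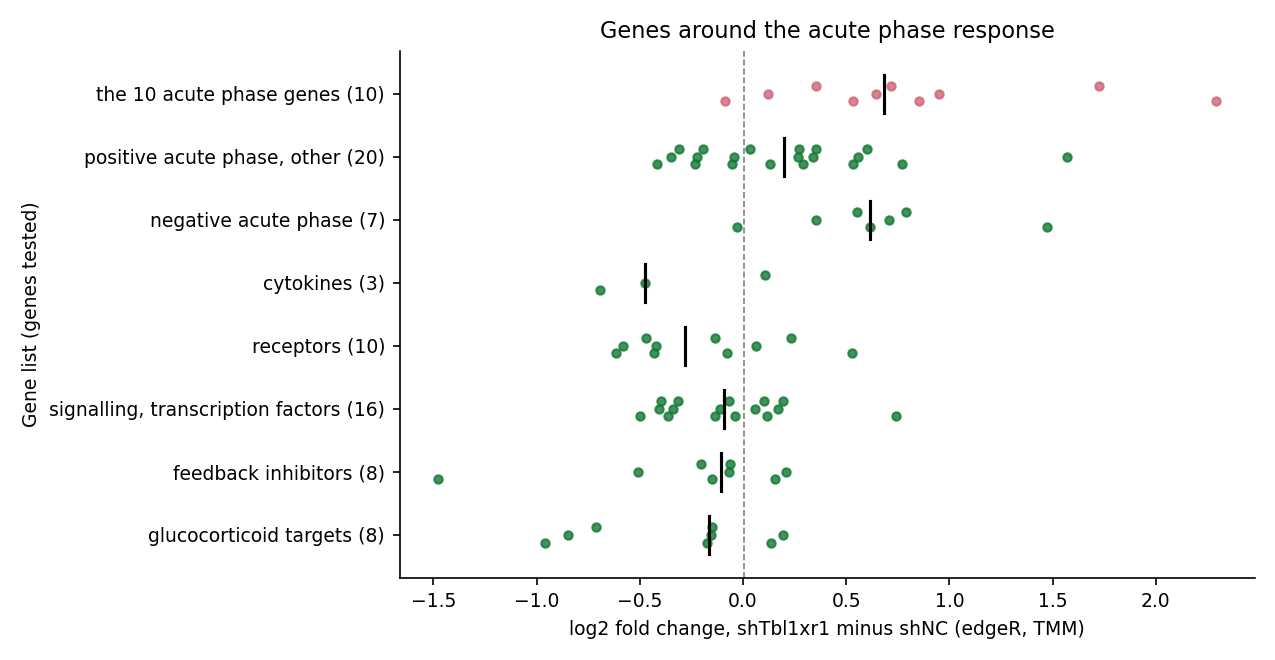
log2 fold change of shTbl1xr1 over shNC (edgeR, TMM) for each tested gene of the 10 members and of 7 further lists around the acute phase response. The members have a median of 0.68 and the 72 further genes of -0.06, and no gene of the 7 lists passed over all genes.

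Of the other positive acute phase proteins, 20 of 20 were tested and none passed, with 12 above 0 and a median of 0.20, or -0.16 with the deeper pair alone and -0.26 on log2 of TPM plus 1. The list's smallest p values belonged to Crp, C-reactive protein, at 214 ± 39.8 CPM in shNC and 326 ± 138 in shTbl1xr1 (log2 fold change 0.60, SE 0.30, edgeR adjusted p = 0.437, range over alternatives 0.01 to 0.987), and to Steap4, a metalloreductase. Steap4 was at 325 ± 72.5 and 243 ± 49.1 CPM (log2 fold change -0.42, SE 0.22, edgeR adjusted p = 0.46, range 0.0613 to 0.782). Of the negative acute phase proteins, which the liver makes less of during the response, 7 of 7 were tested and none passed, with 6 above 0 and a median of 0.62. That median was 1.23 with the shallow pair alone, -0.049 with the deeper pair alone, where 3 of 7 lay above 0, and 0.058 on log2 of TPM plus 1. Serpina6, the plasma carrier of corticosteroids, was at 45.3, 41.1, 25.0 and 67.2 CPM in shNC and 137, 173, 38.6 and 148 in shTbl1xr1. The groups overlapped through shTbl1xr1 3. Its log2 fold change was 1.47 (SE 0.44, edgeR adjusted p = 0.334, range over alternatives 0.00651 to 0.705), and DESeq2 called it with an adjusted p of 0.0423. Ahsg, fetuin A, was at 7190 to 10277 CPM in shNC and 11027 to 16615 in shTbl1xr1, without overlap (log2 fold change 0.55, SE 0.28, edgeR adjusted p = 0.443, range 0.0118 to 0.848). In TPM its groups overlapped, at 7958 to 10286 and 6858 to 11980, and the log2 fold change was 0.058.

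The cytokines that start the response were scarce in these libraries. Of 9 cytokine genes 3 had enough counts to test, Il1a, Il1b and Clcf1, and none passed. Their median log2 fold change was -0.48, and 0.076 with the deeper pair alone. Il1a was at 4.51 ± 0.931 CPM in shNC and 2.69 ± 1.05 in shTbl1xr1 (log2 fold change -0.69, SE 0.31, edgeR adjusted p = 0.426, range 0.01 to 0.745), and Clcf1 had a log2 fold change of -0.48 (SE 0.55). Il6 reached at most 2 counts in a library, and a difference in it was not detectable at this depth.

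Of 10 receptor genes none passed, with 3 above 0 and a median of -0.28, or -0.93 with the shallow pair alone and -0.073 with the deeper pair alone. Il6ra, the interleukin-6 receptor, was at 28.3 ± 9.38 CPM in shNC and 25.4 ± 19.5 in shTbl1xr1 (log2 fold change -0.14, SE 0.46). Il6st, which encodes gp130, was at 144 ± 36.1 and 107 ± 36.8 CPM (log2 fold change -0.42, SE 0.28). Both were lowest in the shallow pair, where Il6ra was at 13.1 CPM in each library. The list's smallest p values belonged to Lifr, the receptor of leukaemia inhibitory factor (log2 fold change 0.53, SE 0.31), and Tnfrsf1b, a tumour necrosis factor receptor (log2 fold change -0.47, SE 0.28).

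Of 16 genes for kinases, adaptors and transcription factors none passed, with 6 above 0 and a median of -0.09, or -0.42 with the shallow pair alone and 0.053 with the deeper pair alone. Stat3 was at 155 ± 20.8 CPM in shNC and 117 ± 19.4 in shTbl1xr1 (log2 fold change -0.41, SE 0.18, edgeR adjusted p = 0.426, range 0.046 to 0.746). Cebpb, a C/EBP factor that rises in inflamed liver, was at 109 ± 45.1 and 117 ± 21.5 CPM (log2 fold change 0.10, SE 0.28). Cebpa, its relative in resting hepatocytes, was at 130 ± 34.2 and 217 ± 88.2 CPM (log2 fold change 0.74, SE 0.35, edgeR adjusted p = 0.428, range 0.00446 to 0.78). The glucocorticoid receptor gene Nr3c1 had a log2 fold change of -0.14 (SE 0.23).

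Of 8 genes on the list named feedback inhibitors none passed, with 2 above 0 and a median of -0.11. The median was -0.41 with the shallow pair alone and 0.0095 with the deeper pair alone. Socs3, which STAT3 induces and which blocks gp130 signalling, was at 17.3 ± 8.78 CPM in shNC and 16.4 ± 7.16 in shTbl1xr1 (log2 fold change -0.07, SE 0.42). Nfkbiz, which encodes a nuclear protein of the inhibitor of kappa B family, was at 8.54, 8.75, 11.3 and 9.67 CPM in shNC. In shTbl1xr1 it was at 0.501, 2.62, 5.86 and 3.97 CPM. Its groups did not overlap (log2 fold change -1.48, SE 0.47, edgeR adjusted p = 0.345, range 0.0021 to 0.705), and the lowest values were those of the shallow pair. Zc3h12a, which encodes the RNase Regnase-1, had a log2 fold change of -0.51 (SE 0.41).

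Of 8 glucocorticoid targets none passed in edgeR, with 2 above 0 and a median of -0.16. With the shallow pair alone none lay above 0 and the median was -1.0, and with the deeper pair alone 5 did and it was 0.23. Tsc22d3, which encodes GILZ, was at 76.7, 93.6, 85.5 and 81.0 CPM in shNC and 32.3, 51.5, 53.4 and 49.7 in shTbl1xr1. The groups did not overlap, with the shallow and with the deeper pair, and the log2 fold change was -0.85 (SE 0.18, edgeR adjusted p = 0.208, range 0.00214 to 0.627) or, with the deeper pair alone, -0.71. DESeq2 called Tsc22d3 as lower, with an adjusted p of 0.00214. Sgk1, a kinase gene, was at 38.2 ± 2.83 and 19.4 ± 8.78 CPM, without overlap in CPM but with shTbl1xr1 3 above shNC 1 in TPM, at 23.3 against 21.8 (log2 fold change -0.96, SE 0.29, edgeR adjusted p = 0.332, range 0.000174 to 0.705), and at -0.53 with the deeper pair alone.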

How the data were processed

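Per the file headers, each of the 8 deposited tables gives, per gene, the authors' expected count, TPM and FPKM with gene lengths. The deposited FPKM column went into no test. STAR, RSEM and DESeq2 1.30.1 are named, with mm10, in the submitters' processing notes, and the annotation release and strand setting are not given there. Replicates are numbered but not said to be separate animals, so each p-value reflects the spread among libraries, which may be technical. The 10 members, the lists and the named genes were chosen with earlier results of these data known.

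Expected counts were rounded, filtered by filterByExpr (13908 of 55401 genes kept), scaled by TMM and fitted by edgeR 4.0.16's robust quasi-likelihood test under R 4.3.3, with Benjamini-Hochberg adjustment over all genes tested and a threshold of 0.05. DESeq2 1.42.0, limma 3.58.1 on log2 of TPM plus 1 or 0.1, other scalings, no filter, a replicate block and left-out libraries were alternatives. Printed CPM is TMM-normalised, and log2 CPM used a prior count of 2. Each SE was back-calculated, as the absolute log2 fold change over the square root of the edgeR test's F statistic. Genes named outside the members were Tbl1xr1, Stat3, Socs3, Il6ra, Il6st, Cebpb and Nr3c1, the 2 of smallest p in each list where none passed, and the 3 most like Orm2, Saa1 and Lcn2 with a mean CPM of at least 5. Fga, Fgg, Itih3 and Fgl1 were added because, like Apcs, they lay wholly below in TPM. Gene symbols and positions are those of GENCODE mouse release 21 on GRCm38 (55141 of 55401 identifiers matched), promoter windows from RefSeq on GRCm38.p6, and alignments from Biopython 1.88.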

Additional observations from a re-analysis of the deposited data

Results flagged for a closer look

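Orm3 in shNC 3 stood far from the other control libraries, at 10.7 TMM-normalised CPM against 1.33 to 2.22 in shNC 1, 2 and 4. The gap made up 0.904 of the group's range, past Dixon's limit of 0.829 for 4 samples. Both groups were checked for each of the 10 genes, 20 checks in all, and chance alone marks about 1 in 20. Without shNC 3 the log2 fold change of Orm3 was 2.92 in place of 1.72.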

How the results depend on the processing

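Among all genes, 6 passed as higher and 1 as lower. The counts were 248 and 47 with DESeq2, 3 and 1 with library size alone, 12 and 1 without the filter, 1 and 0 on log2 of TPM plus 1, 3073 and 3021 with the shallow pair alone, and 7 and 0 with the deeper pair alone. Leaving out 1 library gave 0 to 28 higher and 0 to 6 lower, the most without shTbl1xr1 4, and none of either without shNC 1, shNC 2 or shNC 4. The median log2 fold change of the members was 0.68, and -0.063 on log2 of TPM plus 1 or plus 0.1, -0.23 with the deeper pair alone and 0.33 to 0.98 with 1 library left out. Of the 72 pathway genes none passed, against 1 higher and 1 lower with DESeq2 and 10 and 23 with the shallow pair alone, and none with any 1 library left out. The cause of these shifts was not tested. Library size alone moved the median of all genes to -0.27 and TPM plus 1 to -0.34. Same-numbered libraries had correlations of 0.379, -0.0737, 0.305 and 0.12 in their deviations from group means. For shNC 1, 3 and 4 the same-numbered library gave the highest value, but shNC 1 had 0.375 with shTbl1xr1 2 as well. The highest value of shNC 2, 0.109, was with shTbl1xr1 4. These values do not settle whether the numbers pair the libraries. With the replicate block 4 genes passed as higher and 1 as lower, the members' median was 0.45, and Orm2 did not pass. Hairpin arms of 2 libraries rest on a spread pooled with shNC.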
